A study of Rattus norvegicus with 10 samples.

Results

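The block of rat chromosome 3 from 137 to 141 Mb held 489 of the 716492 genomic regions in the deposited matrix of methylated DNA, or 0.0682%. A region belonged to the block when it started at or after 137000000 and ended at or before 141000000 on chromosome 3 of the RN4 assembly. The block was itself selected on measured values of these libraries, among them the tag counts of single rats and the contrast of injured with sham rats, so its values for those measures are descriptions and not tests. The first region inside the bounds lay at chr3:137005148-137005657 with 110 tags over the 10 rats, and the last at chr3:140994088-140994711 with 365 tags. The nearest regions outside were chr3:136997358-136997689 with 12 tags and chr3:141005630-141005992 with 80 tags.

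Libraries came from the left hippocampus, from tissue holding the CA3 field and the dentate gyrus, of adult male Sprague-Dawley rats. The sham group was 5 rats that received anaesthesia, craniectomy and the remaining surgery without the pressure pulse, and the TBI group was 5 rats with traumatic brain injury by lateral fluid percussion over the left parietal cortex. Tissue of both groups was taken 3 months after surgery, and each library came from 1 rat. The model is a single lateral impact in 1 sex and 1 strain, and the tissue mixes all cell types of both hippocampal fields.

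DNA methylation is the addition of a methyl group to cytosine, in mammals mostly where cytosine precedes guanine. A methyl-binding protein domain captures DNA fragments that carry several such methylated sites, and the captured fragments are sequenced as short reads, here called tags. Stretches of the genome with few CpG sites, or with unmethylated ones, give few tags. A tag count is a relative amount of captured DNA, not a methylation percentage, and it cannot tell apart a lower methylation in each cell from fewer cells that carry it. No annotation of the RN4 assembly was used here, so the regions are given by position and not by gene.

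The tags of a library summed over the regions of the matrix ranged from 13597924 to 21672940. Sham rat 5 stood apart from the other 9 libraries, with no tags in 0.487% of all regions against 6.57% to 16.3% in the others and the highest normalised count in 46.2% of all regions. Comparisons of TBI with sham, and the spread, empty regions and likeness between members, are therefore also given without it.

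Regions of the matrix were sparse in the block. The matrix holds only places where at least 1 pair of libraries was unlike, so these densities are not those of all captured DNA. There were 122 regions per Mb, and 489 in the whole block, against a median of 1150 (range 290 to 1733) in the other 41 windows of 4 Mb on chromosome 3. Of those windows 2 held fewer regions than the block, as did 57 of 625 windows over all autosomes, where the median was 1161. The windows on either side held 1261 regions (133 to 137 Mb) and 1475 regions (141 to 145 Mb). Both were above the median of the chromosome, so the low count was not shared by the neighbouring windows.

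The regions of the block were also shorter and held fewer tags. Their median length was 481 bp, with a range of 179 to 2256 bp, against 575 bp on the rest of chromosome 3. Together they covered 6.62% of the block, whereas regions covered 20.5% of the rest of the chromosome. The block gave 22.8 tags per kb of region and rat, compared with 34.9 on the rest of chromosome 3 and 35.3 over all regions. The median tag sum over the 10 rats was 61 in the block and 115 on the rest of the chromosome.

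The filter used for testing kept regions with at least 117 tags summed over the 10 rats, which is the 50th percentile of the matrix. It kept 156 members, or 31.9% of the block against 49.7% on the rest of chromosome 3, and 333 members were not tested. Tested members had a median length of 672 bp, and untested ones 419 bp. The median level of the tested members was 1.37 CPM (tags per 1000000 tags of the normalised library size), against 1.76 CPM on the rest of the chromosome.

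Regions were unevenly spread along the block. The plot of regions per 100 kb bin shows bins with 13 to 29 regions in the opening 700 kb, 18 to 26 between 1000 and 1300 kb, 13 to 20 between 2300 and 2600 kb and 10 to 23 between 2800 and 3600 kb. Between 700 and 1000 kb the bins held 3 or 4 regions, and between 1300 and 2300 kb they held 3 to 12. Counts per bin ran from 0 to 29 with a median of 11, and 3 of the 40 bins held no region. The successive 1 Mb slices held 148, 111, 99 and 131 regions, of which 42, 28, 31 and 55 were tested. The longest stretch with no region measured 266 kb (chr3:139549652-139815727), followed by 200.5 kb (chr3:140676559-140877063) and 99.1 kb (chr3:137732194-137831303). The median distance between successive regions was 3.40 kb in the block and 1.16 kb over the whole of chromosome 3, the block included.

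**Figure D1:**
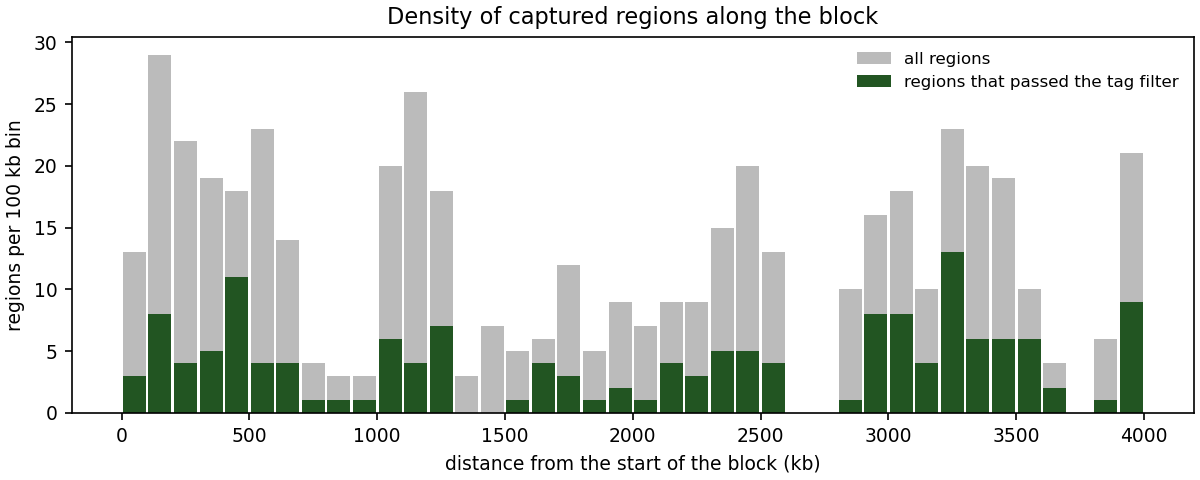
Regions of the matrix per 100 kb bin against distance from the start of the block in kb, with all regions in grey and the regions that passed the tag filter in green. The matrix holds only places where at least 1 pair of libraries was unlike. Bins held 0 to 29 regions, and 3 of 40 bins held none.

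The regions richest in tags were covered in every rat. The region with the most tags per kb, chr3:137418066-137419060, had 107, 76, 171, 219 and 73 tags in sham rats 1 to 5 and 122, 128, 183, 135 and 146 tags in TBI rats 1 to 5. It reached 137 tags per kb and rat, and its level was 8.12 ± 2.81 CPM in sham against 8.68 ± 0.954 CPM after TBI (SD, n = 5 each). The groups overlapped, although sham rat 5 was the lowest in CPM.

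The longest region, chr3:140097954-140100210 with 2256 bp, held 201, 238, 371, 356 and 315 tags in the sham rats and 230, 231, 352, 340 and 340 in the TBI rats. Its spread was the smallest of the tested members, with an SD of log2 CPM within groups of 0.11, and it measured 19.1 ± 1.81 CPM in sham and 17.9 ± 1.02 CPM after TBI (SD, n = 5 per group). The groups overlapped, and no rat was far from the others. The region chr3:140062179-140063103 was similar in this respect, with 70, 58, 104, 115 and 79 tags in sham and 68, 61, 122, 77 and 99 tags in TBI rats. At chr3:140023376-140024674 the tags were 48, 57, 67, 64 and 47 in sham and 41, 51, 57, 59 and 70 in TBI rats, again with overlapping groups.

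Over all tested members the median SD of log2 CPM within groups was 0.441. In the other windows of chromosome 3 it was 0.394 in the median and ranged from 0.330 to 0.463. When sham rat 5 was left out the same members had a median SD of 0.390, against 0.338 over the tested regions of the rest of chromosome 3. The lower tag level and the larger spread occurred in the block together, and the part of the first in the second was not tested.

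The block took a similar share of the tags of each rat, summed over the regions of the matrix, except in sham rat 5. It held 0.0326%, 0.0340%, 0.0340%, 0.0333% and 0.0410% of the tags of sham rats 1 to 5 and 0.0330%, 0.0306%, 0.0331%, 0.0327% and 0.0321% of those of TBI rats 1 to 5. The sham mean was 0.0350 ± 0.00342% and the TBI mean 0.0323 ± 0.00100% (SD, n = 5 each). Without sham rat 5 the sham mean was 0.0335 ± 0.000663% (SD, n = 4), and TBI minus sham changed from -0.00269 to -0.00118 percentage points. Tested members were counted on another base, the tags of each rat in all tested regions. On this base the shares were 0.0293 ± 0.000988% in sham rats and 0.0289 ± 0.000859% after TBI (SD, n = 5 per group). Sham rat 5 was among the other rats with 0.0285%, so its higher share over the whole block was not seen on this base. As the bases differ, both kinds of share are not directly comparable.

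Many members had no tags in some rats. Tags were present in all 10 rats in 258 members, or 52.8%, against 73.5% of all regions. No tags in any rat were found for 7 members (1.43%), against 0.151% of all regions. Among the 9 rats without sham rat 5, tags were present in all in 53.0% of members and 73.6% of all regions. The remaining members were spread over all numbers of rats without tags, from 39 members with 1 such rat to 18 members with 9. The number of members without tags was 157, 87, 119, 157 and 15 in sham rats 1 to 5 and 121, 162, 119, 133 and 95 in TBI rats 1 to 5. Sham rat 5 was far below the others, with 3.07% of the members at 0 against 17.8% to 33.1%. In 18 members (3.68%) it was the one rat with tags, against 1.69% of all regions. It had the highest CPM in 253 members (51.7%), against 46.2% of all regions. Each of the other rats had the highest in 12 to 45 members.

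**Figure D2:**
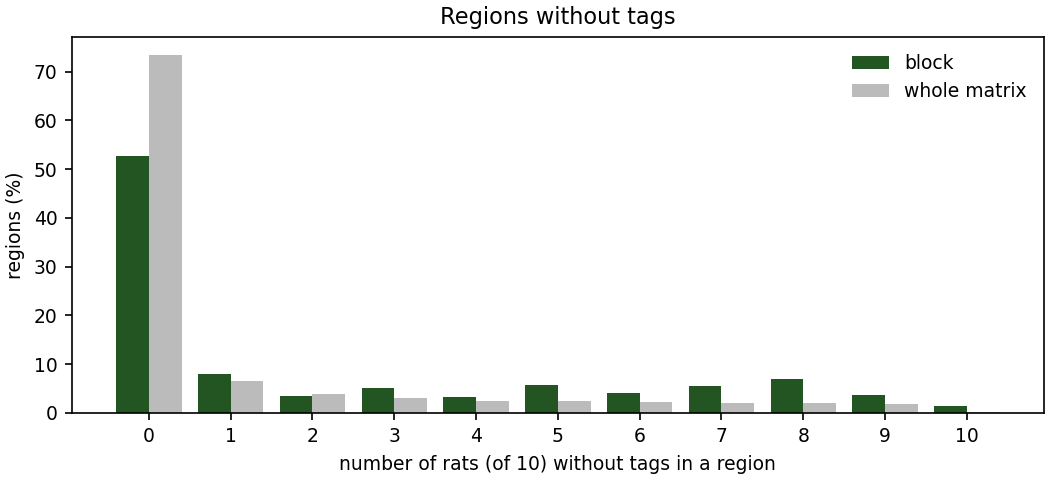
Percentage of regions against the number of rats, of 10, that had no tags in a region, for the block in green and for the whole matrix in grey. Tags in every rat were seen in 52.8% of the block and 73.5% of the matrix, and the bars of the block are the taller from 3 rats without tags onward.

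Among the tested members 3 of 156 (1.92%) had a rat without tags, against 0.214% of all tested regions. A count of 0 limits the level of a region, since 3 tags correspond to 0.151 to 0.245 CPM depending on the library. These limits cover counting error alone.

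Some regions were well covered in several rats and empty in others. Members with 0 tags in at least 2 rats and at least 20 tags in at least 2 rats numbered 4, or 3 without sham rat 5, against 0.0262% of all regions (188 in the matrix). The other windows of chromosome 3 held 0 to 4 such regions with a median of 0, and 2 of the 625 autosome windows held more than the block.

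The region among them with the highest CPM was chr3:138287726-138288479, a stretch of 753 bp. It held 33, 5, 39, 30 and 0 tags in sham rats 1 to 5 and 11, 0, 0, 0 and 0 tags in TBI rats 1 to 5. Sham rats 1, 3 and 4 were high, sham rat 2 and TBI rat 1 intermediate, and sham rat 5 lay with TBI rats 2 to 5 at 0.

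At chr3:137835200-137835682 the counts were 26, 6, 27, 18 and 0 in sham and 15, 3, 1, 0 and 1 in TBI rats. At chr3:140414862-140415302 they were 16, 20, 10, 21 and 1 in sham and 8, 0, 0, 0 and 0 in TBI rats. At chr3:139996889-139997172 they were 21, 9, 22, 16 and 7 in sham and 10, 0, 0, 1 and 2 in TBI rats. The same rats were low each time, namely TBI rats 2 to 5 and, with 7 tags in the last region as the exception to values at or near 0, sham rat 5. These 3 regions did not pass the tag filter. The 4 regions spanned 2580 kb, and TBI rats 2 to 5 had few or no tags in each of them.

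**Figure D3:**
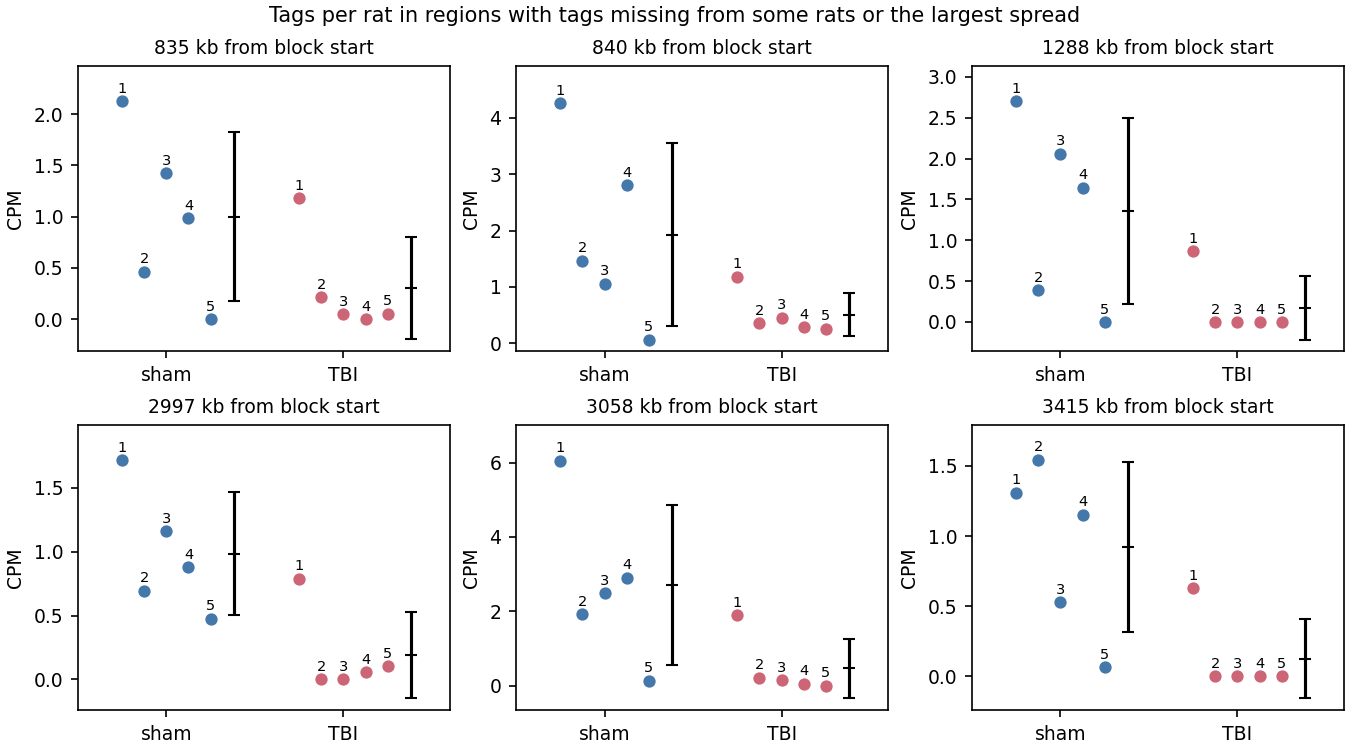
CPM of each rat (points, numbered by rat) with mean and SD over 5 rats per group (bars) in 6 members, placed by distance from the start of the block. Sham rats 1 to 4 and TBI rat 1 carry the tags, and sham rat 5 and TBI rats 2 to 5 lie lower in each panel.

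This order of rats recurred along the block. For each member the Pearson correlation of log2 CPM over the 10 rats with chr3:138287726-138288479 was computed, a comparison chosen, with its limit of 0.8, after values of these regions were seen. The correlation was at or above 0.8 in 19 of 481 members with a tag (3.95%), against 0.174% of all regions with a tag. Since the points are the same 10 libraries each time and the 4 regions above were picked for their empty rats, these correlations are descriptions. In the other 41 windows of chromosome 3 the number of such regions was 0 to 5 with a median of 2. The highest number in the 625 other autosome windows was 10. Every window was compared with a region picked from the block, and none with a region of its own. The comparison thus favours the block, and it does not show that a shared order is particular to it.

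Without sham rat 5 the same 19 members stayed at or above 0.8, and no other member joined them. With the group means removed from both regions of a pair the correlations of these members were 0.71 to 0.99. The members were chosen for a high correlation over the same rats, so these values are no separate support. In chr3:138287726-138288479 TBI rats 2 to 5 were all at 0, so within TBI its order is only TBI rat 1 against the others. The 19 members spanned 3049 kb.

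The closest in pattern were chr3:140593249-140593704 and chr3:140586731-140587084, both with r = 0.99 and both below the tag filter. The first had 10, 4, 15, 10 and 0 tags in sham and 6, 0, 0, 0 and 0 tags in TBI rats. The second had 16, 6, 19, 16 and 0 tags in sham and 8, 0, 0, 0 and 0 tags in TBI rats. Both lay over 2 Mb from the region they resembled. Next came chr3:140057498-140058473 and chr3:137835200-137835682, each with r = 0.96.

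Among tested members the correlation was at or above 0.8 in 8 of 155 (5.16%; 0.287% of all tested regions), at distances of 6.89 to 2593 kb. Not all of these were near 0 in the low rats. At chr3:140082625-140083324, with r = 0.94, the tags were 30, 22, 45, 47 and 21 in sham and 26, 23, 31, 25 and 24 in TBI rats, which is a modest difference of level in the same order of rats. At chr3:139973985-139974915, with r = 0.92, they were 26, 27, 45, 48 and 14 in sham and 29, 15, 17, 21 and 24 in TBI rats.

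The opposite order occurred too. A correlation at or below -0.8 was found in 8 of 481 members (1.66%), against 0.375% of all regions with a tag, and in 5 tested members (0.348% of all tested regions). The most opposed was chr3:137731670-137732194 with r = -0.89, where the tags were 4, 11, 9, 12 and 29 in sham and 8, 12, 28, 19 and 26 in TBI rats. Sham rat 5 again lay beside the TBI rats, now on the high side.

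Members that shared the order of rats stood in short runs and singly. Counting chr3:138287726-138288479 itself, 14 of the 20 members with the pattern lay in 6 runs of successive members with a tag, and 6 stood alone. The longest run was 4 members over 71.5 kb, chr3:137831303-137902775. It opened with chr3:137831303-137831657, which held 13, 5, 5, 5 and 0 tags in sham and 5, 0, 0, 0 and 0 in TBI rats, and went on with the regions at 137835200 and 137839690. Its last member was chr3:137902528-137902775, with 10, 3, 4, 5 and 2 tags in sham and 3, 0, 1, 0 and 0 in TBI rats. The other 5 runs were pairs. One of them joined chr3:140052690-140053019 (33, 12, 12, 17 and 0 tags in sham, 12, 0, 0, 1 and 0 in TBI rats) to chr3:140057498-140058473, and another joined chr3:140404834-140405102 to chr3:140414862-140415302.

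Around chr3:138287726-138288479 the likeness varied. Of the 6 tested members within 100 kb of it, 1 had r at or above 0.8, and the values ran from -0.81 to 0.82 with a median of 0.47. The member 1.045 kb before it, chr3:138286161-138286681, had r = 0.76. It held 35, 11, 18, 26 and 11 tags in sham and 18, 14, 13, 7 and 16 tags in TBI rats, so that it had a like order of rats and was empty in none of them.

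Pairs of neighbouring members were not strongly alike on average. The mean correlation of deviations from the group means was 0.112 for tested members less than 10 kb apart (99 pairs), 0.0105 at 10 to 100 kb (673 pairs), 0.0202 at 100 to 1000 kb (4329 pairs) and 0.00916 beyond (6989 pairs). At less than 10 kb the windows of chromosome 3 had a median of 0.0185, and 45 of 624 autosome windows exceeded the block. The value of the block was 0.0767 when sham rat 5 was left out, against 0.0207 over the rest of chromosome 3. In sparse counts correlations of this size are weak, and they share libraries and depth. The heat map of tested members shows mostly single columns of contrast, with a few longer runs in sham rats 1 and 5.

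**Figure D4:**
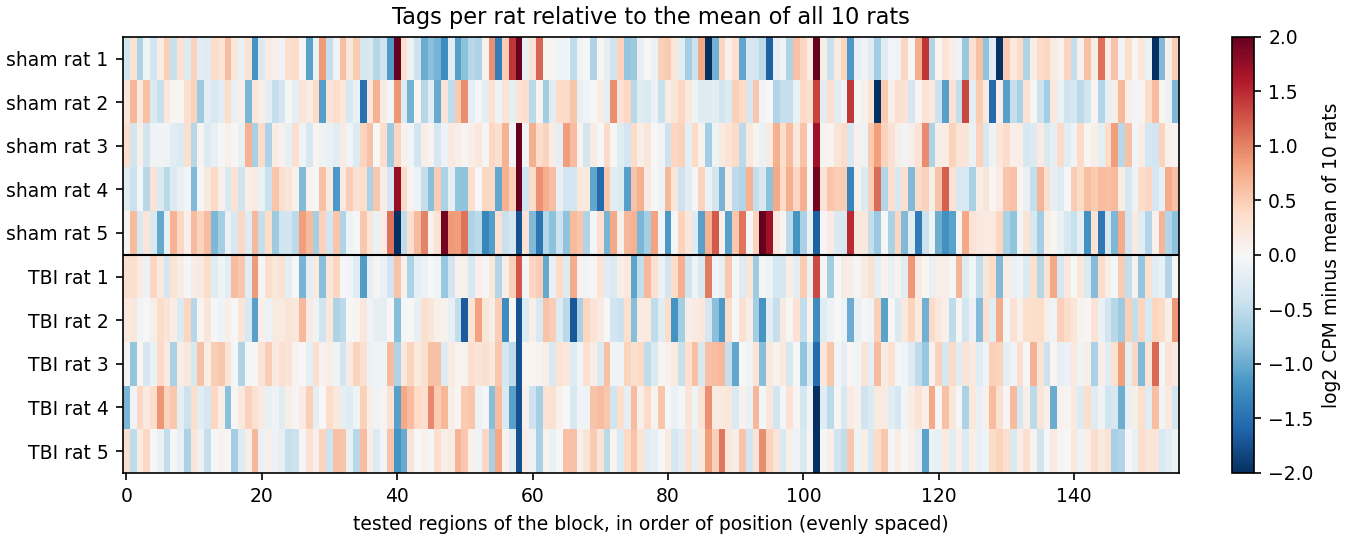
Deviation of log2 CPM from the mean of 10 rats (colour, -2.0 to 2.0) for the 156 tested members in order of position, evenly spaced, with 1 row per rat. Columns of strong contrast mostly stand singly, and the 3 members with the largest spread are red in sham rats 1 and 4 and blue in sham rat 5.

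The remaining comparison was TBI against sham. With all 10 rats, 5 of 156 tested members had an unadjusted p under 0.01, and each was lower in TBI. The corresponding shares of all tested regions were 0.168% lower and 0.098% higher in TBI. After adjustment 0 members were under 0.05 in edgeR (quasi-likelihood or exact test) or in DESeq2. With library sizes from total tags alone the calls over all regions turned from 351 higher and 601 lower to 667 higher and 389 lower, while the block kept 4 calls, again lower in TBI. The median log2 fold change of the tested members was -0.01, against -0.02 over all regions tested, and 75 of the 156 lay above 0. With the tag filter left out it was -0.35 over 482 members, against -0.07 over all regions with a tag. With sham rat 5 left out as well it was -0.01 over 464 members. These calls come from the contrast on which the block was partly chosen, and nothing is read from their number.

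The 3 with the lowest fold change carried the order of rats described above. In the order given below, their unadjusted p in the DESeq2 Wald test were 0.0358, 0.161 and 0.0189. None of the 3 was a call in that test. At chr3:140057498-140058473 the tags were 74, 25, 47, 53 and 2 in sham and 24, 3, 3, 1 and 0 in TBI rats. The means were 2.70 ± 2.15 CPM and 0.463 ± 0.803 CPM (SD, n = 5 per group), and the log2 fold change was -2.72 (SE 0.75). The groups overlapped through sham rat 5 on one side and TBI rat 1 on the other. Without TBI rat 1 the log2 fold change was -4.64.

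At chr3:138287726-138288479, whose tags are given above, the means were 1.36 ± 1.14 CPM in sham and 0.173 ± 0.388 CPM after TBI (SD, n = 5 per group), and the fitted log2 fold change was -3.20 (SE 0.96). The region passed the filter of 117 tags narrowly, mainly through sham rats 1, 3 and 4. It was not tested when any of these rats was left out. Of the TBI rats, 4 were at 0, and without TBI rat 1 the fitted value was -7.49, so 1 library set the size of this fold. The third was chr3:137839690-137840784, with 52, 19, 20, 51 and 1 tags in sham and 15, 5, 9, 5 and 5 tags in TBI rats. Its means were 1.93 ± 1.63 CPM and 0.509 ± 0.384 CPM (SD, n = 5 each), and its log2 fold change was -1.96 (SE 0.59). Sham rat 5 was the lowest of all rats there.

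The other called members had fold changes closer to 0. The region chr3:140250548-140251256 had 25, 11, 27, 18 and 7 tags in sham and 9, 4, 7, 13 and 5 in TBI rats, with a log2 fold change of -1.29 (SE 0.43). The region chr3:140317551-140318293 had 22, 22, 31, 23 and 20 tags in sham and 10, 8, 19, 18 and 20 in TBI rats, with a log2 fold change of -0.79 (SE 0.27). The latter did not share the low value of sham rat 5, whose 20 tags were close to those of the other sham rats.

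Without sham rat 5 the tested set was recomputed on 9 rats and held 160 members. Of these 13 had an unadjusted p under 0.01, 4 of them higher and 9 lower in TBI, against 0.397% higher and 0.396% lower among all tested regions. All 5 calls made with 10 rats were among the 13, and all 13 kept their sign between both sets of rats. They spanned 3041 kb, and the median log2 fold change of the tested members remained -0.01.

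In this set, edgeR's quasi-likelihood test gave 2 members an adjusted p below 0.05, of 14 such regions in the whole matrix (0.0039%). These values were among those that drew attention to the block and are no independent support for it. They were chr3:140057498-140058473, with a log2 fold change of -3.05 (SE 0.48), and chr3:137839690-137840784, with -2.27 (SE 0.38). Their unadjusted p in the DESeq2 Wald test were 0.0152 and 1.68e-07, so the first was not under 0.01 there. The 2 regions lay 2217 kb apart. The number of members under 0.05 is given next, with the number over all regions in brackets. It was 0 without sham rat 1 (6), 0 without TBI rat 4 (9) and 0 with at least 10 tags in every rat (5). It was 1 without sham rat 3 (3), sham rat 4 (15), TBI rat 2 (8) or TBI rat 3 (7). It was 3 without sham rat 2 (48) and 4 without TBI rat 1 (8). By DESeq2 it was 1 (7), by edgeR's exact test 3 (26) and without the tag filter 9 (60). Next was chr3:138287726-138288479 with -3.55 (SE 0.64), an adjusted p of 0.0537 in edgeR and an unadjusted p of 0.0800 in the DESeq2 Wald test. Leaving out TBI rat 1 as well took its fold to -7.83 and that of chr3:140057498-140058473 to -4.94.

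With sham rats 1 to 4 the mean at chr3:140057498-140058473 was 3.34 ± 1.85 CPM (SD, n = 4). TBI rat 1, with 24 tags, still had a level close to that of sham rat 2, with 25 tags. At chr3:138287726-138288479 TBI rat 1 exceeded sham rat 2, so that the groups overlapped even without sham rat 5.

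The 4 members higher in TBI were called in this set and not with all 10 rats. Their number rested on single rats, as it was 1 without sham rat 1, TBI rat 3 or TBI rat 4, 2 without sham rat 4 or TBI rat 2, and 7 without sham rat 2 or TBI rat 1. Calls higher in TBI over all regions were 1422 in this set and 4050 without sham rat 2. Without any other single rat they were 954 to 1771. The region chr3:139498130-139499024 had 0, 7, 7, 11 and 17 tags in sham rats 1 to 5 and 19, 7, 21, 24 and 25 in TBI rats, with a log2 fold change of 1.53 (SE 0.44) over the 9 rats. At chr3:138069843-138070614 the tags were 8, 14, 25, 12 and 20 in sham and 16, 21, 39, 45 and 24 in TBI rats, and the log2 fold change was 0.88 (SE 0.30). Sham rat 1 held no tags in the first of them and the fewest in the second.

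The region chr3:138262116-138262785 had 5, 15, 30, 10 and 23 tags in sham and 10, 25, 37, 35 and 43 in TBI rats, with a log2 fold change of 0.90 (SE 0.32). It lay 25.7 kb from chr3:138287726-138288479 and had the opposite order of rats. The smallest change among the higher members was at chr3:138064062-138065359, with 15, 22, 53, 33 and 77 tags in sham and 30, 45, 64, 57 and 53 in TBI rats. Its log2 fold change was 0.62 (SE 0.22) over 9 rats and 0.21 (SE 0.28) over 10 rats, sham rat 5 having more tags than any TBI rat.

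Of the members lower in TBI in this set alone, chr3:138612380-138613188 had the smallest p. Its tags were 69, 33, 60, 86 and 12 in sham and 44, 27, 51, 26 and 29 in TBI rats, and its log2 fold change was -0.89 (SE 0.23) over 9 rats and -0.64 (SE 0.34) over 10. The other 3 such members had log2 fold changes of -0.86 (chr3:138280785-138281648), -0.83 (chr3:139973985-139974915) and -0.85 (chr3:140880424-140880793), and sham rat 5 was the lowest sham rat in each. Each of these 4 members had r at or above 0.8 with chr3:138287726-138288479.

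**Figure D5:**
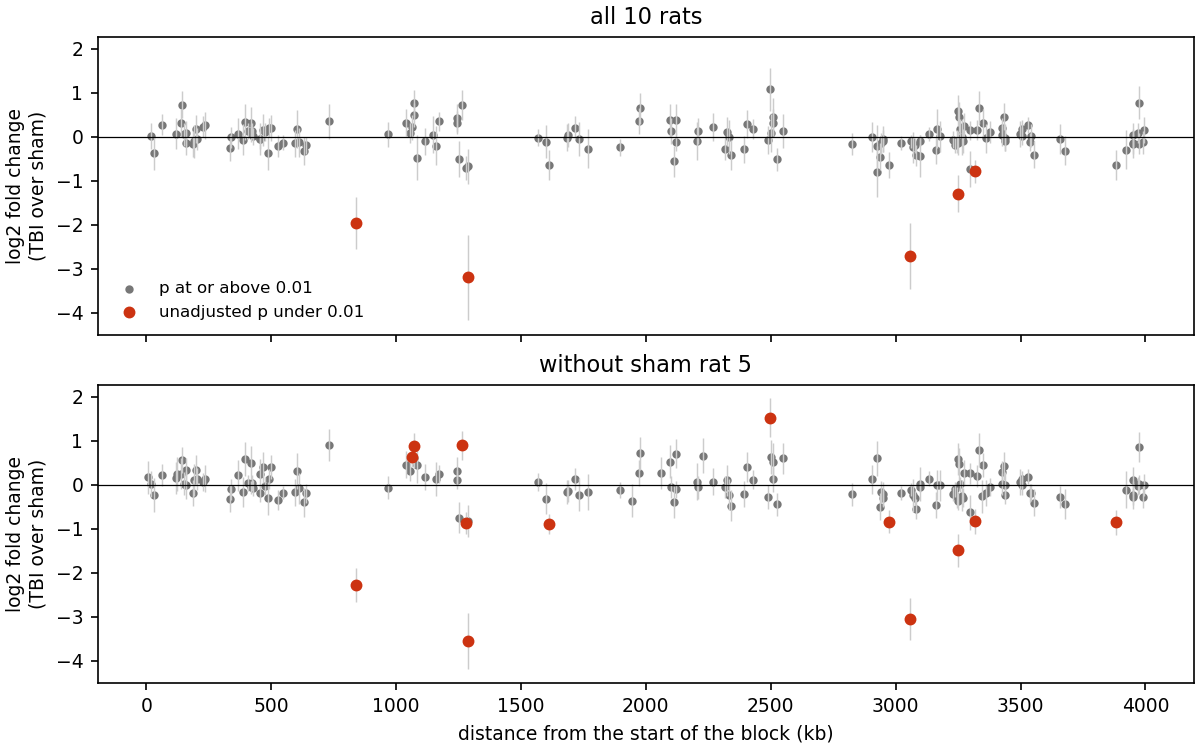
Log2 fold change of TBI over sham with its standard error (bars) against distance from the start of the block in kb, with all 10 rats above and without sham rat 5 below. Members with an unadjusted p under 0.01 are red, 5 above and 13 below, and stand among neighbours close to 0.

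Complete separation of the groups was rare. With 10 rats, 1 tested member had every TBI rat below every sham rat in CPM and 0 had every TBI rat above, against 0.228% and 0.274% of all tested regions. Without sham rat 5 the counts were 5 and 0 of 160, against 0.742% and 0.801%.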

How the data were processed

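Methylated DNA of 10 rats (5 sham, 5 TBI, grouped by the labels) was enriched by methyl-binding capture, and single reads were sequenced. Per the study's methods, the authors aligned reads to RN4 with BWA, compared every pair of libraries with MACS, merged the differing regions with BEDTools and removed duplicate reads. They deposited unscaled counts of tags, so the matrix holds only places where at least 1 pair of libraries was unlike. The methods list 4 control rats for this model while the labels list 5, and which rat was left out is not given in the sources used here.

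Counts were tested over the whole matrix with edgeR 4.0.16 in R 4.3.3 (quasi-likelihood test, two-sided, TMM normalisation, trended dispersion), after keeping regions whose tag sum reached the 50th percentile, with 10 rats (117 tags) and without sham rat 5 (100 tags). An unadjusted p under 0.01 was a call, as in the study, and adjusted p are Benjamini-Hochberg values over all regions tested. The SE of a log2 fold change was derived as its absolute value divided by the square root of the quasi-likelihood F statistic. CPM used TMM-scaled library sizes, and log2 CPM a prior count of 2. Descriptions used pandas 2.3.3 and numpy 2.4.6 under Python 3.11.15, and scripts were tested on simulated data. Alternatives were DESeq2 1.42.0, other normalisations, other filters and leaving out each rat. Regions were named by a rule: those at the bounds, those with the smallest p in each direction (up to 5), those empty in some rats (up to 8), the 3 with most tags per kb, the 3 with the largest and smallest spread, and the longest. Regions named for likeness or as neighbours were chosen after their values were seen. The block, its members and these lists were chosen with earlier results of these data known.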

Additional observations from a re-analysis of the deposited data

Results flagged for a closer look

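Values of single rats in the block were set against the other 4 rats of their group, in 44 sets of values, by the gap between an extreme rat and its nearest neighbour. In 9 sets this gap exceeded Dixon's 95% critical value for 5 samples, and chance alone flags about 1 set in 20, or 2.2 of 44. The sets share libraries and are not independent.

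Sham rat 5 stood out for its share of tags in the block, 0.0410%, and for the number of members in which it had the highest CPM, 253. Sham rat 2 stood out at the first region of the block, chr3:137005148-137005657, with 0.386 CPM.

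TBI rat 1 stood above the other TBI rats in 6 members. It had 1.18 CPM at chr3:137835200-137835682, 1.18 CPM at chr3:137839690-137840784 and 0.867 CPM at chr3:138287726-138288479. It had 0.788 CPM at chr3:139996889-139997172, 1.89 CPM at chr3:140057498-140058473 and 0.631 CPM at chr3:140414862-140415302. Of these members, 4 were named because some rats were empty there, and the other pair because of their contrast between groups, so the flags are not independent of that choice.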

How the results depend on the processing

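No paired analysis was possible because sham and TBI rats carry different numbers in the labels. With 10 rats, the 5 members with p under 0.01 became 12 of 482 without the tag filter (2 higher, 10 lower). All regions gave 3824 calls of 715411 there, against 952 of 358249 in the main setting. The block had 0 calls with at least 10 tags in every rat, where all regions gave 741 of 247206. By DESeq2 the block had 2, chr3:140250548-140251256 and chr3:140317551-140318293, and all regions 878 of 358249. Leaving out each rat gave 0 to 13, with 0 without sham rat 1, 2 without sham rat 3, 13 without sham rat 5, 1 without TBI rat 2, 1 without TBI rat 3, 3 without TBI rat 4 and 2 without TBI rat 5. Calls over all regions ran from 613 without TBI rat 3 to 2841 without sham rat 5, and were 1555 without sham rat 1. Without sham rat 5, the 13 members became 30 without the filter (8 higher, 22 lower) and 4 with at least 10 tags in every rat (1 higher, 3 lower). Over all regions the 2841 calls of 358615 became 5412 of 703286 without the filter. With at least 10 tags in every rat they were 2257 of 254123. Leaving out each further rat gave 8 to 18, with 8 without sham rat 1, and 1 to 7 of them were higher in TBI. Over all regions these fits gave 2025 to 9662 calls, the most without sham rat 2, where the block also had its most, 18. The density of 122 regions per Mb became 39.0 among regions that passed the filter.

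The 4 members empty in some rats became 11 with a minimum of 10 tags in place of 20, 1 with 3 rats in place of 2 on each side, and 2 to 4 when each rat was left out, with 2 without sham rat 1 or sham rat 3. The mean correlation within 100 kb, 0.0235, became 0.0547 with total tags alone and 0.0714 with at least 10 tags in every rat, and ran from 0.00720 to 0.0309 when each rat was left out. The cause of these changes was not tested. None of the called regions run under the alternatives (up to 5 per direction) reversed its direction. Regions named for other reasons were not run under them, and without sham rat 5 the values of chr3:137418066-137419060 (0.08 to -0.06) and chr3:140994088-140994711 (0.15 to -0.01), neither called, changed sign. Tested members had medians of 15 to 28 tags per rat, which limits the precision of single regions.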
